A study of Drosophila melanogaster with 2 samples.

Results

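The axon guidance genes described here were 10 genes taken by symbol from the Ensembl annotation of the Drosophila melanogaster genome: the ligand genes sli, NetA and NetB, the receptor genes robo1, robo2, robo3, fra and unc-5, the sorting gene comm, and Dscam1. They are 10 of 13968 protein-coding genes. Each was followed over its gene body plus 5 kb on each side, and these regions held 19 of the 3921 peak summits of the optimal list. Binding of the CG8281 protein was mapped by ChIP-seq, that is, by sequencing DNA recovered with immunoprecipitated chromatin, in whole embryos aged 0 to 20 h. The embryos were from a transgenic line in which a GFP tag is fused to the C terminus of CG8281, and an anti-GFP antibody was used. Both biological replicates carried this insertion. These 2 samples formed a single group without a comparison group, and therefore no test between samples could be made. Whole embryos mix neurons, glia, muscle and epidermis over all those hours, so a peak cannot be assigned to a cell type or a stage. The authors deposited a peak list for each replicate, a pooled list called on both together and the optimal list, which keeps the peaks found reproducible. A summit is the highest point of a peak, and rank 1 is the strongest peak of its list by the authors' signal value. The lists hold no read counts and the sequencing depth is unknown.

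Axons that grow near the ventral midline of the fly embryo read a balance of attraction and repulsion. Slit, made by midline glia, repels growth cones that carry Robo receptors, and Commissureless keeps Robo off the surface of axons that are about to cross. Netrins, also made at the midline, attract through Frazzled and can repel through Unc-5, while Dscam1 gives neurites of a single neuron a shared identity through a very large set of splice forms.

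CG8281 peaks lay at 6 of the 10 genes. An optimal summit was present in the regions of unc-5, fra, robo2, NetB, NetA and sli, and none was present at robo1, robo3, comm or Dscam1. Among all protein-coding genes 38.3% had a summit in a region built in the same way. The median region spanned 50.3 kb for the 10 genes and 12.2 kb for all, and over all genes the share was higher for longer regions, with 66.1% of those of 60 to 75 kb and 34.7% of those of 10 to 20 kb. With regions of at least 20 kb only, 6 of 8 guidance genes had a summit, beside 59.8% of all such genes. With promoter defined as the sequence within 500 bp of an annotated transcription start site (TSS) of the gene, 2 of the 10 genes, robo2 and unc-5, had a promoter summit, beside 12.2% of all protein-coding genes. That count was 1 with only the 3921 strongest peaks of replicate 2 (without replicate 1, robo2) or of replicate 1 (without replicate 2, unc-5). It was also 1 with the stronger 1960 optimal peaks (unc-5) and with the 5′-most TSS alone (robo2). Genes are not independent replicates, and these shares were not tested.

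Summit density differed widely among the 10 genes. unc-5 had 13.2 optimal summits per 100 kb, fra 8.86, robo2 7.94, NetB 4.09, NetA 3.34 and sli 1.60. The robo2 value depended on its flank and on the number of peaks taken. Its 4 summits became 1 with no flank, and 2 with a flank of 2 kb or with the stronger 1960 peaks. With only the 3921 strongest peaks of replicate 1 (without replicate 2) they became 1. All 4 overlapped a peak of the full replicate 1 list, where the other 3 ranked 3989, 4004 and 5036. Among the other genes with a summit, sli had 2 without replicate 1 and none with the stronger 1960 peaks, which left 1 at NetA, 1 at NetB and 3 at unc-5. Over all 10 regions together the density was 3.89 per 100 kb, beside 3.70 over the regions of all protein-coding genes, 3.34 over those of at least 20 kb and 2.85 over the chromosome arms. Of the 1985 long regions, unc-5 ranked 107 by density, fra 295, robo2 365, NetB 757, NetA 900 and sli 1123. Among genes with regions of 30 to 40 kb, 16 of 350, or 4.57%, had as many summits as unc-5 or more. The 5 unc-5 summits became 4 with no flank, and 4 without summits within 500 bp of the TSS of another gene. The 90th percentile of its class, counted with the 5 kb flank, was 4. For fra the share in its own length class was 15.3%, for robo2 15.5%, for NetB 33.1%, for NetA 46.5% and for sli 66.1%. Having no summit at all was common too: 33.5% of the genes in the length class of robo3 had none, 33.9% in that of Dscam1, and 65.3% in that of robo1 and comm.

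**Figure D1:**
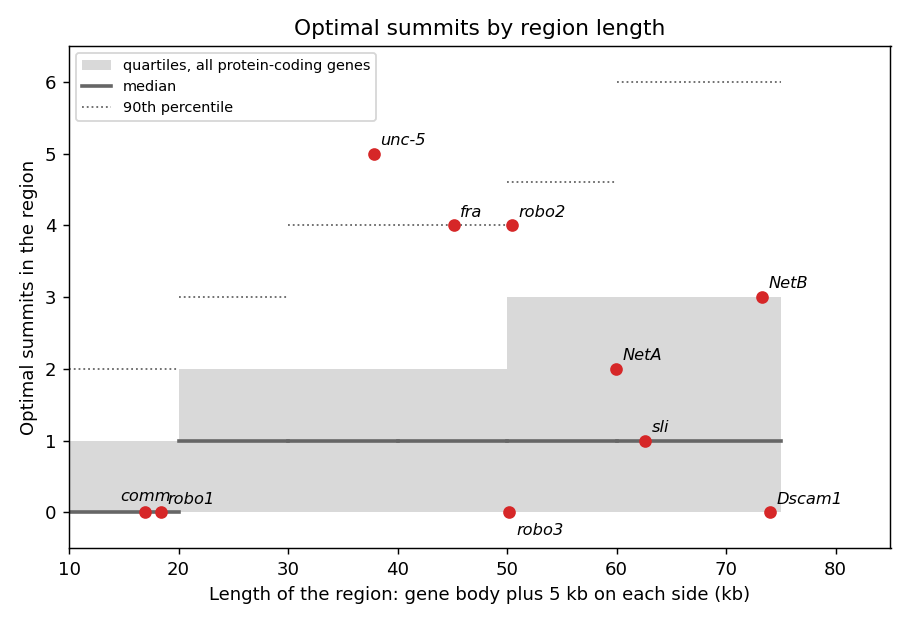
Optimal summits in each region (vertical axis, count) against the length of the region (horizontal axis, kb). Red points are the 10 axon guidance genes, grey bands run from the lower to the upper quartile of all protein-coding genes in each length class, solid lines are medians and dotted lines 90th percentiles. unc-5, with 5 summits, lies above the 90th percentile of its class, fra and robo2 with 4 lie above the upper quartile, and the other genes lie at or below it. The unc-5 count includes a flank summit 132 bp upstream of the TSS of Pms2.

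The longer lists ordered the genes differently. The pooled list and each replicate list held 30000 peaks, so that 21.8 summits per 100 kb fell on the arms in each of them. The 10 regions held 138 pooled summits (28.2 per 100 kb), 101 summits of replicate 1 (20.7 per 100 kb) and 164 of replicate 2 (33.6 per 100 kb). The guidance genes therefore stood above the arms in replicate 2 and close to them, slightly below, in replicate 1. comm was the densest of the 10 in replicate 2, at 82.7 per 100 kb, and had 23.6 per 100 kb in replicate 1. robo3 had 21.9 per 100 kb in replicate 1 and 1.99 in replicate 2.

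**Figure D2:**
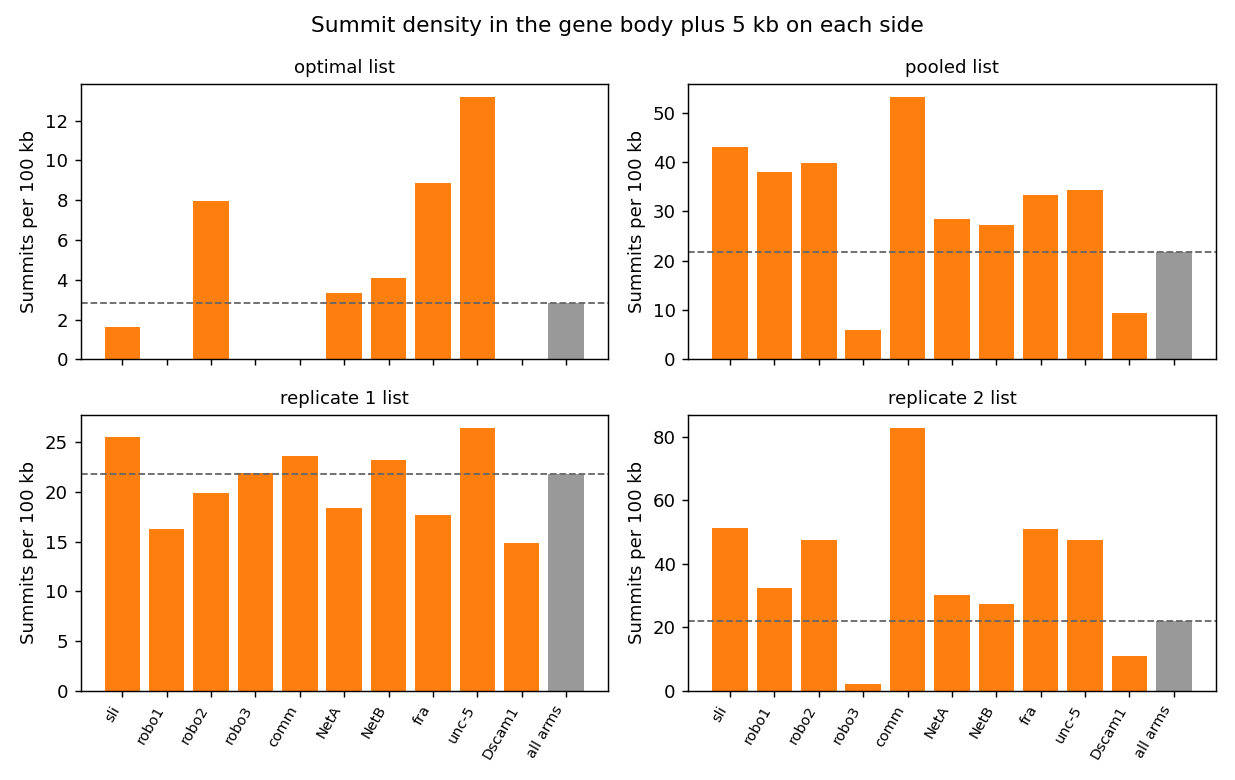
Summits per 100 kb (vertical axis) of each axon guidance gene in the optimal, pooled, replicate 1 and replicate 2 lists, in orange, beside the chromosome arms as a whole, in grey and as a dashed line. The vertical scales differ between panels. In the optimal list unc-5 is highest at 13.2 and 4 genes are at 0, while in the list of replicate 2 comm is highest at 82.7.

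Most of the 19 optimal summits lay in introns. There were 13 in introns (68.4%), 2 in promoters, 1 in an untranslated exon, 2 in upstream flanks, 1 in a downstream flank and none in coding sequence. Introns made up 62.4% of the length of the 10 regions. Over all protein-coding genes with regions of at least 20 kb, 56.7% of gene and summit pairs were intronic, with introns at 62.7% of the length, and 16.8% were at promoters. Of the 19 summits, 13 lay more than 2000 bp from the nearest TSS of any protein-coding gene (68.4%), beside 43.1% of all optimal summits. The 43.1% is not limited to long genes, whereas the genes that held the 19 had regions of 37.8 to 73.3 kb. Whether length gives the difference was not tested. The nearest TSS was that of the guidance gene itself for 9 summits and of another gene for 10. Signals of the 19, which are the authors' values within the list, had a median of 225, beside 217 for the whole list. Introns also held most summits of the longer lists, with 99 of 138 pooled summits, 63 of 101 in replicate 1 and 116 of 164 in replicate 2. Coding exons had 7 summits in replicate 1, 4 of them in Dscam1, and none in the pooled list or in replicate 2.

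**Figure D3:**
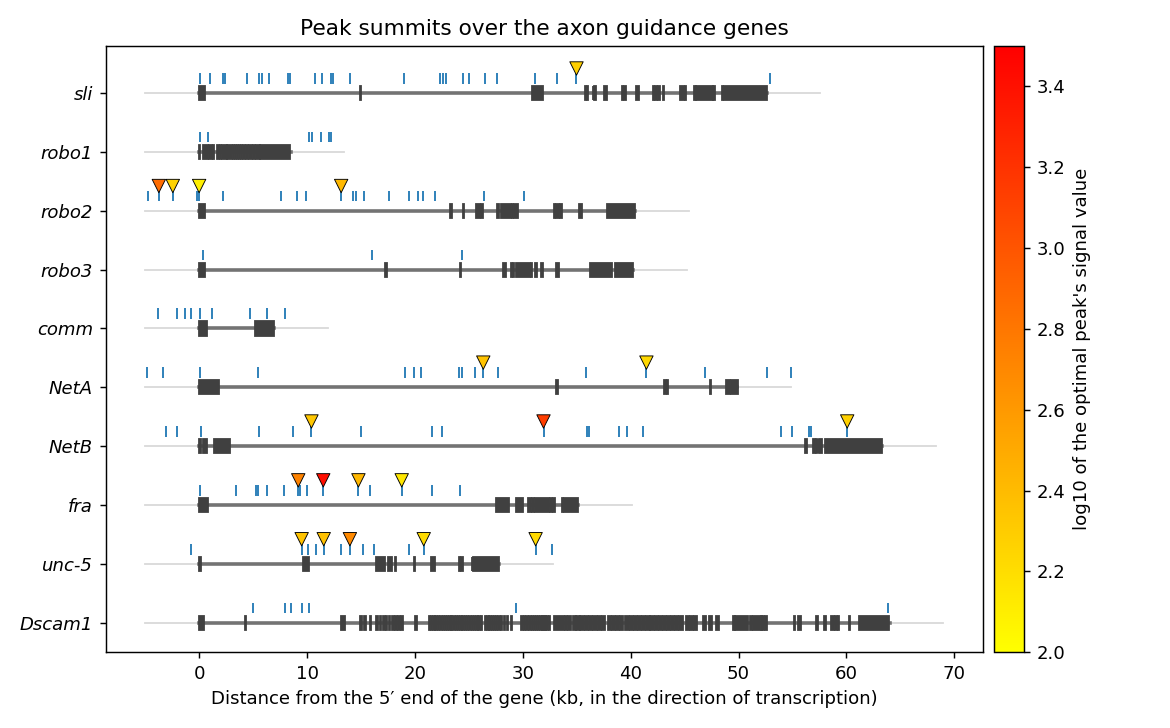
Map of the 10 genes drawn from the 5′ end in the direction of transcription (horizontal axis, kb), with exons as boxes, introns as thick lines and 5 kb flanks as thin lines. Triangles are the 19 optimal summits, coloured by the log10 of their signal, and blue ticks are pooled summits. fra has its 4 triangles in the first intron, robo2 has 3 of 4 at or upstream of its 5′ end, and robo1, robo3, comm and Dscam1 have ticks but no triangle.

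sli, on 2R at 15869495 to 15922118 on the minus strand (FBgn0264089), encodes Slit, the midline repellent. Its optimal summit, at 15887160 (signal 193.1, rank 2256), lay in an intron of 3.97 kb, 34958 bp from the 5′ end of the gene and 3757 bp downstream of its nearest TSS, which is an internal sli TSS. The peak there had a signal of 84.32 at rank 2566 in replicate 1 and 101.2 at rank 2443 in replicate 2. sli was one of the genes with many weaker peaks. It held 27 pooled summits, of which 24 were intronic, with 16 in replicate 1 and 32 in replicate 2. Among the 3921 strongest peaks of replicate 2 was a further sli intron peak, at 15913743 with a signal of 91.76, that was not in the optimal list.

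NetA and NetB encode the Netrins and are neighbours on the X chromosome, both on the minus strand. NetB (FBgn0015774, 14686038 to 14749376) held the stronger binding. Its strongest summit had a signal of 1384 and ranked 181 of 3921. It lay in an intron of 53.4 kb, 31546 bp from the nearest NetB TSS and 1478 bp downstream of the TSS of hog. In the separate lists this peak had a signal of 886.5 at rank 114 in replicate 1 and 504.3 at rank 272 in replicate 2, so both placed it among their strongest. A weaker summit in the same intron, at 14738984, lay 10026 bp from the nearest NetB TSS. Its signal was 214.3 at rank 1989, with 111.4 at rank 1832 in replicate 1 and 101.4 at rank 2435 in replicate 2. The third NetB summit, at 14689299 (signal 187.4, rank 2342), lay in the 3′ untranslated part of a 5.37 kb exon and was the only one of the 19 in an exon. Its signal was 104.0 in replicate 1 and 93.68 in replicate 2.

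NetA (FBgn0015773, 14604012 to 14653928 on the X chromosome) had 2 weaker summits, both intronic and both far from a TSS. The summit at 14627601 (signal 225.3, rank 1871) lay in an intron of 31.3 kb, 26233 bp from the nearest NetA TSS, and had a signal of 88.98 in replicate 1 and 136.8 in replicate 2. The summit at 14612471 (signal 170.0, rank 2649) lay in an intron of 9.89 kb, 41363 bp from a NetA TSS, with a signal of 70.93 in replicate 1 and 101.9 in replicate 2. The nearest protein-coding TSS for both was that of sbm. Neither NetA nor NetB had an optimal summit at a promoter, and each had 1 pooled promoter summit.

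The sequences within 100 bp of the summits of the weaker NetB intron peak and of the stronger NetA peak are shown because these intron peaks of the Netrin genes had similar signals in the optimal list. They are given 5′ to 3′ on the plus strand of Release 6 (dm6), read from the RefSeq genome, with capitals marking any of the 4 words of 6 bases described further on. The windows are chrX:14738884-14739084 for NetB and chrX:14627501-14627701 for NetA, which holds none of the words.
NetB weaker intron summit: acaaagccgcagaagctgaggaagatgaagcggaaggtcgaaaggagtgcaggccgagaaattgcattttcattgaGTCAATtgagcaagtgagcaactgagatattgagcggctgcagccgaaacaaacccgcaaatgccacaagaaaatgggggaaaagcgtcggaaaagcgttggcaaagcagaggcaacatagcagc
NetA stronger intron summit: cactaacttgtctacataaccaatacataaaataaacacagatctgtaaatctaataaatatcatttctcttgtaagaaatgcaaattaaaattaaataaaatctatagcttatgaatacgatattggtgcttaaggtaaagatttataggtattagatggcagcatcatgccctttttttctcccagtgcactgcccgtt

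GC content was 49.8% in this NetB window and 30.3% in the NetA window, beside a median of 36.8% over all optimal summits. The word in the NetB window begins 24 bp before the summit.

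fra (FBgn0011592, 2R, 12529053 to 12564184, plus strand) encodes Frazzled, the attractive Netrin receptor, and held the strongest peak of the 10 genes. All 4 of its optimal summits lay in its first intron, of 26.7 kb, between 9167 and 18762 bp from the 5′ end. The strongest, at 12540539, had a signal of 2587 and ranked 79. It ranked 45 in replicate 1, with a signal of 1761, and 162 in replicate 2, with 809.4, and the summits of the replicates lay 0 and 7 bp from it. The summit at 12538220 followed, with a signal of 537.5 at rank 597, and 176.6 in replicate 1 and 363.9 in replicate 2. The summit at 12543802 had an optimal signal of 264.2 at rank 1517, with 93.82 in replicate 1 and 154.0 in replicate 2. The weakest fra summit, at 12547815, had 139.9 at rank 3353, with 62.19 in replicate 1 and 76.63 in replicate 2. All 4 fra peaks were thus among the 3921 strongest of each replicate. The first 3 summits lay upstream of CG33752, whose TSS falls in the same intron, at 7469, 5150 and 1887 bp from it, and the last lay 2126 bp downstream of that TSS. No optimal summit lay at the fra promoter itself, which had 1 summit in the pooled list, none in replicate 1 and 3 in replicate 2.

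unc-5 (FBgn0034013, 2R, 15340472 to 15368300, plus strand) encodes the receptor through which Netrin repels, and held the most summits, 5. Of these 3 were intronic, at 15352001, 15354428 and 15361275. The strongest, at 15354428, had a signal of 495.7 at rank 666, and 258.1 at rank 605 in replicate 1 and 237.3 at rank 749 in replicate 2. It shared an intron of 6.23 kb with the summit at 15352001, whose signal of 233.9 ranked 1781, with 94.95 in replicate 1 and 137.8 in replicate 2. The third intron summit, at 15361275, had a signal of 163.0 at rank 2794, with 84.60 in replicate 1 and 83.04 in replicate 2. All 3 intron peaks were among the 3921 strongest of both replicates, which the other unc-5 peaks were not. The promoter summit, at 15349954, lay 179 bp upstream of an internal unc-5 TSS and 9482 bp from the 5′ end of the gene. Its optimal signal was 225.8 at rank 1864, and the replicates placed it differently, at rank 1164 in replicate 1 (signal 160.5) and rank 5641 in replicate 2 (56.12). The fifth summit, at 15371652 (signal 166.1, rank 2725), lay in the downstream flank, 132 bp upstream of the TSS of Pms2. It ranked 6246 in replicate 1 (38.57) and 1786 in replicate 2 (127.5). Without summits within 500 bp of the TSS of another gene, unc-5 kept 4.

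The Robo paralogs, which encode receptors for Slit, differed from one another. robo2 (FBgn0002543, 2L, 1380086 to 1420453, minus strand) held 4 optimal summits, and robo1 and robo3 held none. robo2 and robo3 have similar layouts, with bodies of 40.4 kb and 40.2 kb, introns over 84.6% and 82.3% of them, and 1 annotated TSS each. robo2 nevertheless held 20 pooled summits and robo3 held 3. In replicate 1 they were near each other, with 10 summits in robo2 and 11 in robo3, while in replicate 2 robo2 had 24 and robo3 had 1.

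Of the robo2 summits, 3 lay at or upstream of the 5′ end of the gene. The strongest summit, at 1424215, lay 3762 bp upstream of the TSS, with a signal of 727.3 at rank 400. Both replicates had it close to that rank, at 412 in replicate 1 (338.4) and 399 in replicate 2 (386.8). A summit at 1422918, 2465 bp upstream, had a signal of 184.0 at rank 2399. It ranked 3989 in replicate 1 (56.79) and 1661 in replicate 2 (134.2). The promoter summit at 1420479, 26 bp upstream of the TSS, was the weakest of the 19, with a signal of 124.5 at rank 3856, just above the lowest signal of the list, 123. It ranked 5036 in replicate 1 (46.32) and 3157 in replicate 2 (84.74). The remaining summit, at 1407306, lay in the first intron, of 22.7 kb, 13147 bp downstream of the TSS, with a signal of 261.7 at rank 1543. It ranked 4004 in replicate 1 (56.60) and 914 in replicate 2 (207.0). Of the 4 peaks, 1 was among the 3921 strongest of replicate 1 and all 4 were among those of replicate 2.

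The windows of the strongest robo2 peak, of the other upstream peak and of the intron peak are shown because robo3 held no optimal summit. They are chr2L:1424115-1424315, chr2L:1422818-1423018 and chr2L:1407206-1407406 on Release 6 (dm6), in plus-strand orientation from 5′ to 3′, while robo2 is transcribed from the minus strand. Capitals again mark the words of 6 bases, of which the strongest window has none.
robo2 strongest upstream summit: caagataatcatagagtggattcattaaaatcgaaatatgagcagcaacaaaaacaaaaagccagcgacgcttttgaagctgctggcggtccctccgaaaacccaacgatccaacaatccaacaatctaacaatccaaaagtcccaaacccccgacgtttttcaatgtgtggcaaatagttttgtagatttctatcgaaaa
robo2 second upstream summit: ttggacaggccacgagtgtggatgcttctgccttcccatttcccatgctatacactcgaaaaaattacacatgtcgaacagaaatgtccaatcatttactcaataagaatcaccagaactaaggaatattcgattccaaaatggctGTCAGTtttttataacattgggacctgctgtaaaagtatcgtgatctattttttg
robo2 intron summit: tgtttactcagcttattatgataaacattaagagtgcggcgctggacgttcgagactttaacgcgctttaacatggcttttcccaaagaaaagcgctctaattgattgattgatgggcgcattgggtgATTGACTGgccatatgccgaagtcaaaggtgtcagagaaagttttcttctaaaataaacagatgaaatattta

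In the robo2 intron window 2 of the words overlap, beginning 28 and 30 bp after the summit on the plus strand. The word in the second upstream window begins 46 bp after the summit. GC content was 40.3%, 38.3% and 39.3% in the 3 windows.

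robo3 (FBgn0041097, 2L, 1256417 to 1296596, plus strand) had its strongest peak of each longer list at its promoter, at ranks far below the 3921 strongest. In the pooled list that peak had a signal of 44.3 at rank 14115, 303 bp downstream of the TSS, and in replicate 1 it had 27.9 at rank 9561, 326 bp downstream. In replicate 2 the only robo3 peak, 379 bp upstream of the TSS, had a signal of 19.3 at rank 24835. The nearest optimal summit outside robo3 lay 54.9 kb away.

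robo1 (FBgn0005631, 2R, 22692524 to 22700970, minus strand), which encodes the founding Robo receptor of midline repulsion, is compact, with a body of 8.45 kb and introns over 19.6% of it. It had 7 pooled summits, 5 of them in the downstream flank and 2 at promoters, with 3 summits in replicate 1 and 6 in replicate 2. The strongest pooled one ranked 6005 (signal 85.8) and lay in the downstream flank, 1801 bp upstream of the TSS of Ppa. In replicate 1 the strongest ranked 4479 (51.3), and in replicate 2 the strongest ranked 4976 (61.4), both in that flank. The nearest optimal summit lay 6.09 kb outside the gene, just beyond the flank of 5 kb.

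comm (FBgn0010105, 3L, 15721511 to 15728430, minus strand), whose product keeps Robo from the surface of crossing axons, spans 6.92 kb. It had 9 pooled summits, the strongest at rank 7434 (72.8) in the downstream flank, where the nearest TSS was that of CG42570. Over the comm region replicate 1 had 4 summits, the strongest at rank 6037 in that flank, and replicate 2 had 14, the strongest at rank 4821 in an intron. The nearest optimal summit lay 5.53 kb outside the gene, again just beyond the flank.

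Dscam1 (FBgn0033159, 2R, 7317924 to 7381899, minus strand) is the longest of the 10 genes, at 64.0 kb with 75 annotated transcripts, and encodes the immunoglobulin superfamily receptor whose alternative exons diversify neurite surfaces. It had no optimal summit and 7 pooled ones, with 11 summits in replicate 1 and 8 in replicate 2, so its density was below that of the arms in every list. The strongest pooled summit, in an intron, ranked 11631 (51.3). Only clusters of at least 5 mutually exclusive exons were counted. These clusters, with 12, 48 and 33 exons counted from the 5′ side, held 0, 1 and 0 pooled summits. Replicate 1 had 1, 3 and 2 summits in them, at best ranks of 21602, 15030 and 24433, and replicate 2 had none.

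The replicates located the same 19 places and ranked them differently. Each of the 19 optimal peaks overlapped a peak in both replicate lists, beside 94.9% of all optimal peaks, and the optimal list was itself derived from these lists. With only the 3921 strongest peaks of each replicate, 14 of the 19 were in both (68.2% of all optimal peaks were), 15 in replicate 1 (82.6% of all) and 18 in replicate 2 (84.0% of all). A peak among the 3921 strongest was found in the regions of 6 of 10 genes in replicate 1, beside 40.7% of all protein-coding genes, and of 6 of 10 in replicate 2, beside 34.9%. These were the same 6 genes as in the optimal list. Of the 19, 8 ranked higher in replicate 1 and 11 in replicate 2, and Spearman's rho between the ranks was 0.532 over the 19 peaks, given as a description of peaks that share 2 libraries.

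**Figure D4:**
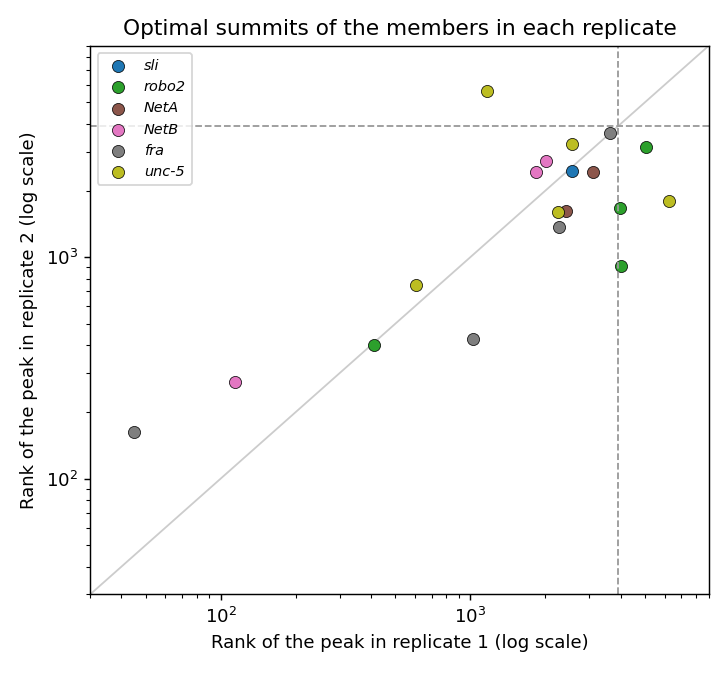
Rank of each of the 19 optimal peaks among the 30000 peaks of replicate 1 (horizontal axis, log scale) and of replicate 2 (vertical axis, log scale), where rank 1 is the strongest. Colours are genes, the grey line marks equal ranks and dashed lines mark rank 3921. The strongest fra and NetB peaks rank highest in both, and 5 peaks, 3 of robo2 and 2 of unc-5, lie beyond a dashed line.

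Short sequence words were counted on either strand, overlaps included, within 100 bp of each summit. The words listed for factors were GAGAG for GAGA factor, CAGGTA for Zelda, TATCGATA for DREF, CGATA for the core of BEAF-32, GTGGGAA for Su(H) and GGTCACACT for the core of M1BP. The E-box words were CACGTG together with CAGCTG and also CATATG. The remaining words were CACACAC as a repeat, TGATAAG with its shorter relative TTATCA, the run AAAAAAAA and the repeat CTCTCT. The BEAF-32 core word CGATA was the commonest at the guidance genes, in 10 of 19 windows (52.6%), beside 24.5% of all optimal windows and 22.0% of flanking windows of the same size. CTCTCT was in 4 (21.1%), beside 10.6% of all, and GAGAG in 5 (26.3%), beside 22.9% of all. The words for Zelda, DREF, Su(H) and M1BP, the E-box word CACGTG and the word TGATAAG were in none, and each of these was in at most 5.38% of all optimal windows. CGATA is contained in TATCGATA. CTCTCT contains the reverse complement of GAGAG, so its 4 windows are among the 5 with GAGAG. A match is a run of letters and not a bound site.

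The 4 words of 6 bases with the largest excess over flanks in the 1000 strongest optimal peaks outside the 10 regions were GACTGA, followed by CAGTCA, then by ACTGAC and last by ATTGAC, and they overlap one another in sequence. They were chosen after seeing the data, on peaks outside the regions of the 10 genes. Those peaks include some at other axon guidance genes, such as Sema1a. At the guidance genes at least 1 of them was in 10 of 19 windows (52.6%), beside 43.4% of the 1000 strongest peaks on which the words were picked, 31.9% of all optimal windows and 20.5% of flanks. CAGTCA was in 5 windows (26.3%), beside 13.9% of all. The word GACTGA was in 4 (21.1%), beside 12.8% of all, and the word ATTGAC was also in 4 (21.1%), beside 16.2% of all. The word ACTGAC was in 2 (10.5%), beside 11.8% of all. The strongest peaks of fra and robo2 had none of the words. The unc-5 intron summit at 15352001 had 16 matches, while the other windows had at most 2. Overlapping matches of different words were each counted, so the 16 need not be separate places.

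The 51 other axon guidance genes, listed with earlier results of these data known, covered Semaphorins and Plexins, Eph and Ephrin, Wnt5 and its receptors, receptor phosphatases, adhesion proteins and cytoplasmic effectors. Of these genes, 31 had an optimal summit (60.8%), beside 6 of the 10 above and 38.3% of all protein-coding genes. Their summed density was 3.04 per 100 kb, beside 3.89 for the 10 genes. With regions of at least 20 kb, 27 of 41 had a summit (65.9%), beside 59.8% of all such protein-coding genes. The strongest were at Sema1a, a transmembrane repellent, with an intron peak of signal 5619 at rank 32, and at comm3, a paralog of comm, with a promoter peak of signal 5195 at rank 34. Mical, an actin-regulating effector of Plexin A, had an intron peak of signal 3654 at rank 53, for which the nearest TSS was that of CG31407. ena, an actin regulator that acts downstream of Robo, had an intron peak of 2883 at rank 67 and 6 summits, or 18.7 per 100 kb, above unc-5. Ptp4E, a receptor tyrosine phosphatase, had a peak of 1399 at rank 178 in its downstream flank. A promoter summit was present at 10 of the 51 (19.6%), beside 12.2% of all protein-coding genes. These were comm3, Mical, Ptp4E, Toll-7, dlp, Ptp99A, PlexA, trio, RhoGAP93B and Pak.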

How the data were processed

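ChIP-seq peak lists of 2 biological replicates, of the pooled replicates and of both combined (optimal) were used, on dm6. Fragments were of 200 to 800 bp after sonication, per the labels, and per the deposited descriptions each replicate list came from its own alignment with a control alignment and the optimal list from the irreproducible discovery rate. For aligner, caller and threshold: not given in the sources used here. Columns used, as deposited, are the authors' signal per peak, the −log10 of the q value, which was not used further, and the summit offset. How the authors scaled the signal is unstated, so peaks were ranked within a list, rank 1 being the strongest. Depth is unknown, and no interval could be given.

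Genes came from Ensembl release 115 (BDGP6) and sequences from the RefSeq Release 6 genome, the same assembly. The spans of all 10 genes were equal in both. The sequence of the strongest NetB peak is not reported here. Each summit in a gene body plus 5 kb on each side was given 1 class, in the order promoter (within 500 bp of a TSS of the gene), coding exon, untranslated exon, intron and flank. The assignment of classes, except the untranslated exon, was checked on simulated positions. The members and lists were chosen with earlier results of these data known, and nothing was tested. The text names the 10 members, the gene of the nearest TSS of their summits, and, of 51 other guidance genes, the 5 with the strongest summit and those with a promoter summit. Alternatives changed the list, the number of peaks, the flank, the promoter and the treatment of other genes' promoters. The tools were SciPy 1.17.1, pandas 2.3.3 and NumPy 2.4.6 under Python 3.11.15, with Matplotlib 3.10.9 for figures.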

Additional observations from a re-analysis of the deposited data

How the results depend on the processing

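The number of guidance genes with a summit lay between 5 and 8 over all alternatives, the highest with flanks of 10 kb and with the 7842 strongest pooled peaks. The share of all protein-coding genes was not computed for changed flanks or numbers of peaks, so counts under those settings have no background. All 19 summits lay within 150 bp of a summit in both replicates, a share not computed over all optimal peaks. Of their peaks, 14 were among the 3921 strongest of both, beside 68.2% of all optimal peaks. The other counts moved with the number of peaks taken. The stronger 1960 optimal peaks left 10 summits, or 2.05 per 100 kb, at the guidance genes, 1 gene with a promoter summit and 19 of the other guidance genes with a summit, and 7842 pooled peaks gave 33 summits, or 6.75 per 100 kb. Leaving out a replicate, that is, taking the 3921 strongest peaks of the other, gave 3.07 to 3.89 summits per 100 kb. It gave 1 gene with a promoter summit (1 to 1), and using the 5′-most TSS alone also gave 1. Of 90 counts for single genes under an alternative, 17 moved by over 1.5 times. The causes of these shifts, beyond the number of peaks taken, were not tested. No paired analysis was possible because the samples form 1 group. Unknown depth limits what the lack of a peak at robo1, robo3, comm and Dscam1 shows: none was detected at the strength of the optimal list.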

Other observations

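Paralogs of the guidance genes, named after their values were seen, are given as values. Of the comm paralogs, comm3 had 3 optimal summits, with its strongest at rank 34, and comm2 had 1, at rank 3659 with a signal of 129.7 in a downstream flank, beside none at comm. The regions spanned 44.6 kb at comm3, 12.3 kb at comm2 and 16.9 kb at comm. In the length class of comm3, of 40 to 50 kb, 60.9% of all genes had a summit, and the upper quartile was 2 summits. In that of comm2 and comm, of 10 to 20 kb, 34.7% had a summit. The Dscam paralogs Dscam2, Dscam3 and Dscam4 had no optimal summit, as Dscam1 had none. Of all genes with regions of 40 to 50 kb, as at Dscam2 and Dscam3, 39.1% had none. For regions of 50 to 60 kb, as at Dscam4, it was 33.5%. Among receptor tyrosine phosphatases, which act in motor axon guidance, Ptp10D had 9 optimal summits in a region of 65.3 kb, or 13.8 per 100 kb, the strongest at rank 987. In its length class, of 60 to 75 kb, 66.1% of all genes had at least 1 summit, and the 90th percentile was 6 summits. Ptp99A had 3 summits, Ptp4E 2 and Lar 1, while Ptp69D and Ptp52F, with regions of 16.6 and 17.2 kb, had none. Of all genes with regions of 10 to 20 kb, 65.3% had none. Eph and Ephrin, a receptor and its ligand, had none either. A summit was present in 55.1% of all regions of 20 to 30 kb, as at Eph, and in 34.7% of those of 10 to 20 kb, as at Ephrin.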
